A study of Mus musculus with 11 samples.

Results

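Gene expression in whole liver was compared between mice kept on chow and mice that were given a Western diet and alcohol and were injected repeatedly with DT (the group WDA-DT), 7 of the 11 RNA-seq libraries of the series. All 7 were chosen by their labels: 3 chow livers and 4 livers of the DT-injected group (replicates 1 to 4 of the labels), and 4 livers of mice on the same diet with serial saline injections were used beside them as a reference. Every mouse, chow controls included, was a male of genotype Clec4f-DTR, 8 weeks old at the start of a feeding period of 16 weeks. Such mice carry a receptor for diphtheria toxin under control of Clec4f, a gene that is active in Kupffer cells, so that toxin injections remove those cells. The chow labels name no injections, so the effects of the diet, the alcohol, the injections and the loss of Kupffer cells cannot be told apart in the contrast with chow. Values of the saline group stand beside those of the DT group for that reason. The labels do not say whether the livers came from separate cages or litters, and p-values measure the spread between these samples.

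Kupffer cells are the resident macrophages of the liver sinusoids, where they clear particles, microbes and old red cells from portal blood. Their niche is shared with sinusoidal endothelial cells and hepatic stellate cells, and when they are lost, blood monocytes can settle there and become macrophages. In fatty livers of people and mice, macrophages that express Trem2, Gpnmb and Spp1 gather around lipid and scar, stellate cells turn into collagen-producing myofibroblasts, and injured bile ducts sprout in what is called a ductular reaction.

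The 7 libraries held 43995217 to 58089531 counts. The labels name whole liver tissue, although the extraction text describes a suspension of CD45+ cells, and hepatocyte transcripts were abundant in all of them, with Alb, which encodes serum albumin, at 63910, 71260 and 82940 CPM (counts scaled to a common library size) in the chow livers and 66450, 60930, 49170 and 48660 CPM in the DT livers. The DT livers did not form a tight group. In a principal component analysis of the 500 genes with the highest variance, the leading component took up 87.2% of it. On that axis DT livers 1, 3 and 4 lay between 50.2 and 62.2, the chow livers between -49.8 and -43.5, and DT liver 2 at -24.2, nearer to the chow livers than to its own group. Mitochondrially encoded genes took 1.33% of the counts of DT liver 1, 4.82% to 6.96% of the other DT livers and 6.32% to 6.84% of the chow livers. Deviations of DT liver 1 from the mean of the libraries went with GC content (Spearman's rho 0.42 across 8291 genes), those of DT livers 3 and 4 with transcript length (0.38 and 0.43) and those of DT liver 2 against it (-0.36). The part of these measures in the results below was not tested beyond the count without each liver and the count after a GC correction.

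Of 16707 genes tested, 1555 (9.31%) were higher and 534 (3.2%) lower in the DT livers than in chow at an adjusted p under 0.05 (edgeR quasi-likelihood test, Benjamini-Hochberg), together 2089 genes or 12.5%. A call below means that threshold in a fit of the 7 libraries alone. Each count of list members below stands beside these shares of all genes, 9.31% higher, 3.2% lower and 12.5% together. Among the called genes, 1603 differed by at least 1 on the log2 scale, 1392 of them upward. The lowest DT liver was above the highest chow liver, or the reverse, for 4819 genes (28.8%), and 1964 of the called genes were among them. DT liver 2 lay above every chow liver for 1433 of the 1555 higher genes and below every chow liver for 532 of the 534 lower ones. The fit that made the calls included DT liver 2, so a gene for which it lay near chow was less likely to be called. These counts therefore do not measure how well DT liver 2 went with its group. The number of calls rested on few animals. It was 5694 without DT liver 2, and without DT liver 1 it was 1071, without DT liver 3 it was 166 and without DT liver 4 it was 96. Without chow liver 1, 2 or 3 it was 6, 8 and 29, so that the word "called" stands for a result of all 7 libraries together. When libraries were scaled by their total count alone, 3958 genes were higher and 193 lower, and the median log2 fold change of all genes moved from -0.01 to 0.44.

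**Figure D1:**
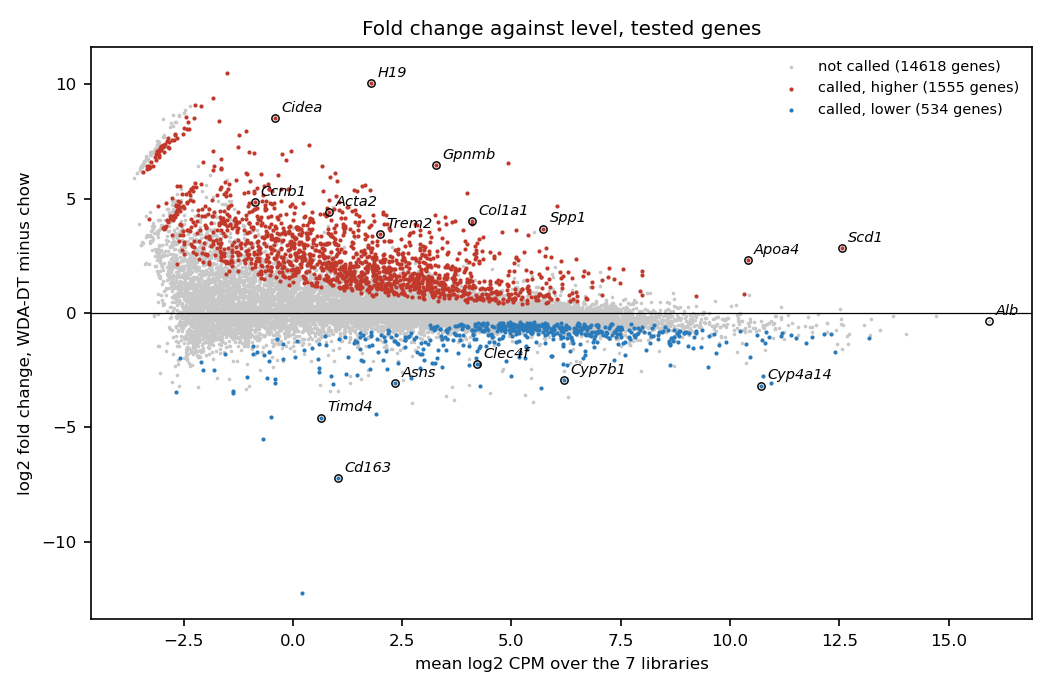
Log2 fold change of the DT livers over chow (vertical axis) against the mean log2 CPM over the 7 libraries (horizontal axis), 1 point a gene; red points were called higher (1555 genes), blue points lower (534 genes), grey points were not called, and 17 genes described in the text are circled. H19 is at 10.05, Cd163 at -7.22 and Alb, at the right edge and not called, at -0.37.

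The largest rises among genes of at least middle abundance (mean log2 CPM of 2 or more, groups not overlapping) were those of Gpnmb, Ly6d, Gstm3, Ddr1, Loxl1, Itgax, Bicc1, Cd63, Col1a1 and Lepr, between 4.01 and 6.46 on the log2 scale. Gpnmb, a transmembrane glycoprotein of lipid-laden macrophages, stood at 0.479, 0.968 and 0.953 CPM in the chow livers and at 101, 23.8, 68.1 and 91.2 CPM in DT livers 1 to 4, a log2 difference of 6.46 ± 0.61 (SE; adjusted p = 0.00613). All 4 DT livers were far above chow, with liver 2 the lowest of them. Ddr1, a collagen receptor of epithelial cells, and Bicc1, an RNA-binding protein of tubular epithelia, rose by 4.43 ± 0.91 and 4.27 ± 0.86 on the log2 scale. Lepr, the leptin receptor, was uneven within the group, at 12.4, 22.5, 168 and 31.1 CPM against 3.48, 4.71 and 2.67 CPM in chow. Its level in the saline livers was 58.8 ± 47.1 CPM (SD, n = 4), and the DT minus saline difference was 0.03 (adjusted p = 0.984).

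The largest falls by the same rule were those of Selenbp2, Cyp4a14, Asns, Serpina1e, Cyp7b1, Cyp4a31, Cyp4a10, Rfx4, Csrp3 and Retsat, between -3.29 and -2.37. Asns, asparagine synthetase, was at 19.8, 16.1 and 15.9 CPM in chow and at 1.79, 1.47, 2.46 and 2.39 CPM in the DT livers, so that even DT liver 2 lay with its group. It fell by 3.08 ± 0.23 on the log2 scale (adjusted p = 0.00302), and of the 149 called genes for which each library was left out in turn it was the only one that kept its call in all 7 fits. Asns stood at 1.34 ± 1.00 CPM (SD, n = 4) in the saline livers, and its DT minus saline difference was 0.61 (adjusted p = 0.302). Retsat, which saturates retinol in hepatocytes, went from 1565, 1937 and 2219 CPM to 359, 567, 313 and 236 CPM, and differed from the saline group too (-0.95, adjusted p = 0.0423). So did Cyp7b1 (-1.70, 0.0266) and Csrp3 (-1.90, 0.0301). Selenbp2, Cyp4a14, Serpina1e, Cyp4a31, Cyp4a10 and Rfx4 did not differ from saline at the threshold (adjusted p from 0.0746 to 0.91). Cyp4a10, Cyp4a14 and Cyp4a31 encode related fatty acid hydroxylases, and Serpina1e belongs to a family of near-identical copies, so the split of reads among similar copies is uncertain.

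Kupffer cell genes were lower for 6 of 14 tested and higher for 0. Clec4f, whose promoter drives the toxin receptor, stood at 49.0, 51.7 and 38.3 CPM in chow livers and 9.71, 15.8, 7.66 and 6.32 CPM in DT livers, a fall of 2.23 ± 0.30 on the log2 scale (adjusted p = 0.0157). Timd4, a receptor for dying cells on long-lived Kupffer cells, was at 13.3, 9.91 and 7.72 CPM against 0.672, 0.777, 0.173 and 0.136 CPM and fell by 4.58 ± 0.61 (adjusted p = 0.0157). Both were low in every DT liver, DT liver 2 included, and the groups overlapped for neither gene. Vsig4, a complement receptor, was at 38.1, 38.5 and 31.4 CPM against 11.1, 14.4, 11.1 and 9.02 CPM and fell by 1.66 ± 0.17 (adjusted p = 0.00682). The scavenger receptor for haemoglobin, Cd163, was at 41.2, 54.5 and 57.8 CPM in chow, at 16.5 ± 4.98 CPM (SD, n = 4) in saline livers and at 0, 1.29, 0.115 and 0.108 CPM in DT livers; DT liver 1 had 0 counts. Marco, another scavenger receptor, fell by 2.37 ± 0.52 (adjusted p = 0.0309).

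The list's median log2 fold change was -0.68 beside -0.01 for all tested genes. The sixth lower gene, C6, is a complement component that hepatocytes also make. The other 8 members were not called and lay on both sides of 0, from -0.89 for Folr2 and -0.48 for Clec1b, through -0.19 for Nr1h3 and -0.12 for Cd5l, to 0.16 for Slc40a1, 0.32 for Spic, 0.42 for Il18bp and 1.06 for Id3; they are named after their values were seen. Total-count scaling called 5 of the 14 lower and 2 higher. In the fit of all 11 libraries, 2436 of 17038 genes (14.3%) were higher and 1298 (7.62%) lower in the DT than in the saline livers, together 21.9%; this contrast and the one with chow share the DT livers. Of the 14 Kupffer cell genes 7 were lower than in saline, among them Clec4f (-2.28, adjusted p = 0.00125), Timd4 (-4.44, 0.00125) and Vsig4 (-1.61, 0.000871). Saline livers had Clec4f at 48.1 ± 3.07 CPM (SD, n = 4), close to chow. In whole liver, fewer cells of a type and less RNA per cell cannot be told apart. The 6 lower genes became 8, with 1 higher, without DT liver 2, 5 without DT liver 1, 3 without DT liver 3 or 4, and 0, 0 and 1 without chow liver 1, 2 and 3.

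**Figure D2:**
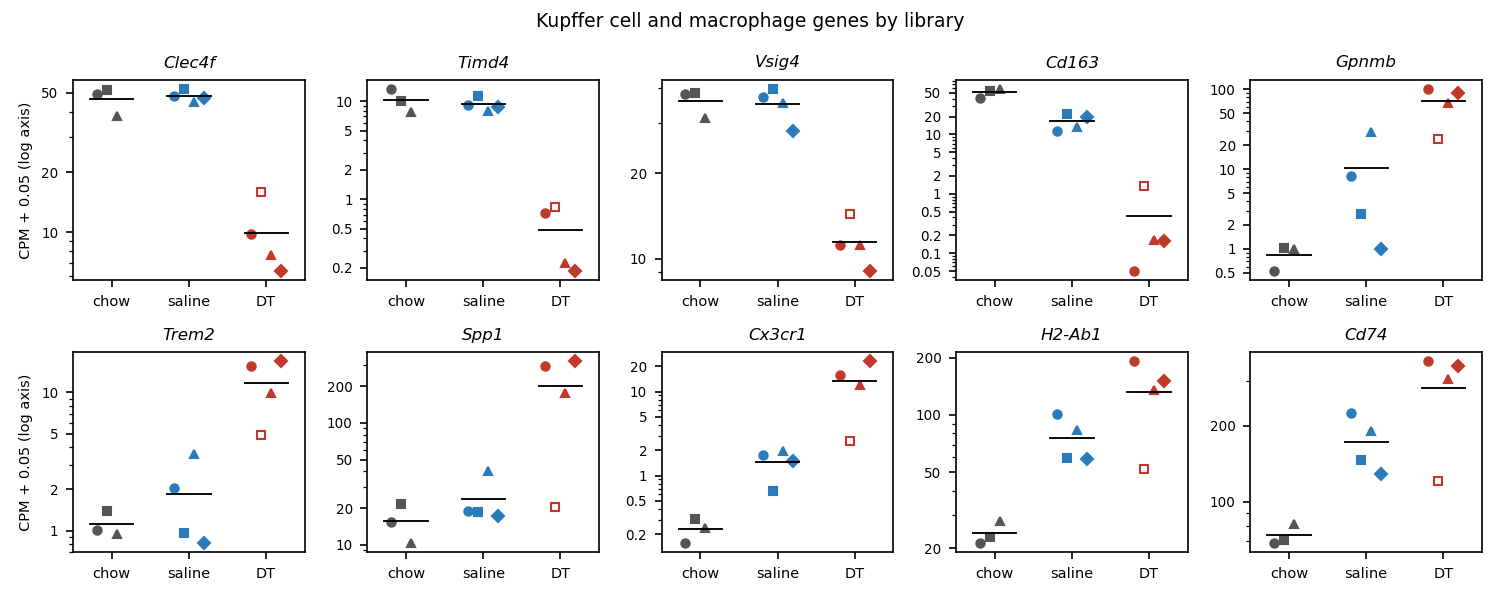
CPM plus 0.05 on a log axis for 10 Kupffer cell and macrophage genes in the 3 chow (grey), 4 saline (blue) and 4 DT livers (red); circles, squares, triangles and diamonds are replicates 1 to 4, the open square is DT liver 2 and bars are group means. Clec4f, Timd4, Vsig4 and Cd163 are below chow in every DT liver, and Gpnmb, Trem2, Cx3cr1, H2-Ab1 and Cd74 are above chow in every DT liver.

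Genes of lipid-associated macrophages went the other way. Of 16 tested, 11 were higher and 0 lower, with a median log2 fold change of 2.46. Trem2, a lipid-sensing receptor, was at 0.957, 1.35 and 0.905 CPM in chow and 15.3, 4.83, 9.86 and 16.6 CPM in the DT livers (3.44 ± 0.46, adjusted p = 0.0157). Spp1, osteopontin, which duct cells make as well, was at 15.4, 21.4 and 10.2 CPM against 292, 20.5, 178 and 319.8 CPM, with DT liver 2 inside the chow range and the other DT livers far above it (3.69 ± 0.84, adjusted p = 0.0339). Mmp12, a macrophage elastase, rose by 5.37 ± 0.60, the actin-capping gene Capg by 2.60 ± 0.32 and the galectin Lgals3 by 2.33 ± 0.33. Against the saline livers 9 of the 16 were higher and 1, the lysosomal lipase Lipa (-0.54, adjusted p = 0.0118), named after its values were seen, was lower; Trem2 (2.70, adjusted p = 0.00774) was among the higher ones and Mmp12 (0.83, adjusted p = 0.387) was not called. The count of 11 was 12 without DT liver 2, 9 without DT liver 1, 5 and 4 without DT livers 3 and 4, and 0, 0 and 1 without chow liver 1, 2 and 3.

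Monocyte genes were higher for 4 of 10 tested, beside 9.31% of all genes, with none lower. Cx3cr1, a chemokine receptor of monocytes and young macrophages, was at 0.106, 0.253 and 0.191 CPM in chow and 15.8, 2.55, 11.8 and 22.9 CPM in the DT livers (6.14 ± 0.83, adjusted p = 0.0159), and Ccr2, which draws monocytes from blood, at 0.319, 0.757 and 0.905 CPM against 2.66, 2.24, 6.54 and 10.2 CPM (3.02 ± 0.66, adjusted p = 0.0303). Every DT liver was above every chow liver for both. Plac8 and Ace rose by 1.80 ± 0.31 and 2.25 ± 0.53. Fn1 (-0.65, groups not overlapping) and Treml4 (-0.01), named after their values were seen, lay below 0 and were not called. Cx3cr1 also exceeded its saline level (3.23, adjusted p = 0.00673), whereas the Ccr2 difference from saline of 1.03 did not pass (adjusted p = 0.15). Genes that most macrophages share moved less: Mpeg1, Fcgr1, Lyz2 and Cd68 rose by 0.93 (Fcgr1) to 1.35 (Lyz2), the other 8 of 12 were not called, and the list's median was 0.58. For Lyz2 the groups overlapped, with DT liver 2 inside the chow range. Adgre1, Csf1r and Mertk, named after their values were seen, lay below 0 (-0.24, -0.32 and -0.23), and 9 of the 12 genes above it. Adgre1 was lower than in saline (-0.60, adjusted p = 0.0304), and 2 genes of the list were higher. Without DT liver 2 the calls were 6 of the monocyte genes higher and 1 lower and 8 of the general macrophage genes higher, without DT liver 1 they were 3 and 1, without DT liver 3 or 4 they were 1 and 0, and without any 1 chow liver 0 of either list.

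Genes for antigen presentation by MHC class II were higher for 7 of 10 tested, with a median of 2.04 and none lower. H2-Ab1, a class II beta chain, was at 21.2, 22.8 and 27.8 CPM in chow livers and 191, 52.1, 135 and 150.1 CPM in DT livers (2.46 ± 0.41, adjusted p = 0.021). Ciita, the master regulator of class II transcription, rose by 2.45 ± 0.40, H2-DMb1 by 1.72 ± 0.28, H2-Eb1 by 2.69 ± 0.46 and H2-Aa by 2.49 ± 0.44. Saline livers held H2-Ab1 at 75.7 ± 20.6 CPM (SD, n = 4), and 0 of the 10 genes were called between DT and saline. Of 10 dendritic cell genes, Siglech, Itgae and Xcr1 rose (by 2.41 ± 0.48, 4.44 ± 1.03 and 2.38 ± 0.63) from levels that reached 0.421, 0.143 and 0.294 CPM in the highest chow liver. Calls without DT liver 2 were 10 class II and 7 dendritic cell genes higher, without DT liver 1 there were 7 and 1, and without any other single liver 0 of either list.

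Interferon-response genes were higher for 9 of 16 tested and lower for 0, with a median of 1.13. Isg15, a ubiquitin-like protein induced by interferon, was at 2.02, 2.48 and 2.72 CPM in chow and 6.40, 5.31, 4.78 and 4.75 CPM in DT livers (1.14 ± 0.23, adjusted p = 0.0256). Ifit3, which restrains viral RNA, was at 4.07, 3.89 and 4.69 CPM against 11.2, 6.37, 8.09 and 12.3 CPM (1.17 ± 0.26, adjusted p = 0.0312). For both genes DT liver 2 was above every chow liver. Oasl2, Bst2 and the transcription factor Irf7 rose by 2.08 ± 0.38, 0.93 ± 0.17 and 0.58 ± 0.11, and Ifi44 by 2.19 ± 0.47. Saline livers had Isg15 at 6.47 ± 1.74 CPM (SD, n = 4) and Ifit3 at 12.2 ± 2.67 CPM (SD, n = 4), and 2 of the 16 genes were higher and 1 lower in DT than in saline. Ifit3 was picked after its values were seen, for its promoter. The 9 were 14 without DT liver 2, 7 without DT liver 1, 1 and 0 without DT livers 3 and 4, and 0 without any 1 chow liver.

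The interferon-stimulated response element was searched as TTTC, a pair of any bases and TTTC again, on both strands of the 250 bases before the start listed first for each gene in RefSeq (GRCm38.p6, a build other than the one the reads were aligned to). Of the 16 genes 12 had an entry, 7 of these held the element, and so did 5 of the 9 that were called, beside 3.04% of all 27025 promoters. The pair below is shown because it carries the element in called genes, in capitals; on the strand shown it may read as its reverse complement, with GAAA at both ends, and the matches in Isg15 overlap. The Isg15 window is chr4:156200819-156201068, minus strand, and the Ifit3 window chr19:34583279-34583528, plus strand, each printed 5′ to 3′ along the gene.
Isg15: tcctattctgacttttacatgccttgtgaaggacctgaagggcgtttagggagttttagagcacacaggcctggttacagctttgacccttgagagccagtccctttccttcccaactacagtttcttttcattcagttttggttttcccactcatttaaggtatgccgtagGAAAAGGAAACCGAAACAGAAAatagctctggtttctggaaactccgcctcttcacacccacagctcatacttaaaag
Ifit3: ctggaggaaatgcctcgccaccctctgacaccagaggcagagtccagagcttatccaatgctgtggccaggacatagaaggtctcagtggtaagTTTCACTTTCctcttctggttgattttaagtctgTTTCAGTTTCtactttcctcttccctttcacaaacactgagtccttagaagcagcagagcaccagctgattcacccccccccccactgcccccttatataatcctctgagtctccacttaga

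Among 19 chemokine and cytokine genes tested, 8 were higher and 0 lower (median 1.48). Ccl2, which attracts monocytes through Ccr2, was at 0.0532, 0.0421 and 0.191 CPM in chow and 4.19, 1.21, 1.51 and 3.39 CPM in the DT livers (4.73 ± 0.74, adjusted p = 0.0197). Cx3cl1, the ligand of Cx3cr1, was at 0.372, 0.337 and 0.524 CPM against 13.3, 1.12, 8.67 and 14.7 CPM (4.52 ± 0.85, adjusted p = 0.0236). Cxcl2, a neutrophil attractant, had 0 counts in all 3 chow livers and 0.768, 0.518, 0.461 and 0.705 CPM in the DT livers, at least 8.58-fold higher when the chow livers are set to 3 counts per library. Ccl3 and Cxcl1 rose by 3.90 ± 0.72 and 3.17 ± 0.69. Cx3cl1 was also above saline (3.59, adjusted p = 0.00749), and in all 4 genes of the list were higher and 1 lower than in saline. Of 15 T and NK cell genes 2, Ncr1 (3.63 ± 0.76) and Trac (1.81 ± 0.40), were higher, beside 9.31% of all genes. Ncr1 was near the floor, at 0, 0.042 and 0.048 CPM in chow against 0.592, 0.259, 0.490 and 0.298 CPM. A count of 3 was 0.0631 to 0.0798 CPM in the chow libraries. Of the 15 genes, 13 had a positive log2 fold change. Gzma (-1.93) and Gzmb (-1.21), named after their values were seen, did not, and neither was called. Of 10 B cell and 8 neutrophil genes 0 were called by edgeR (4 and 1 at an unadjusted p under 0.05, and 4 and 1 by DESeq2); without DT liver 2 there were 4 and 5 higher, and without any other liver 0. The chemokine count was 14 higher and 1 lower without DT liver 2, 5 without DT liver 1, 2 and 0 without DT livers 3 and 4, and 0 without any 1 chow liver. The T and NK cell count was 9 without DT liver 2, 1 without DT liver 1 and 0 without any other liver.

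Every one of the 20 fibrosis genes was called higher, beside 9.31% of all genes. Their median log2 fold change was 3.26. Col1a1, a chain of the main scar collagen, was at 3.35, 4.84 and 3.91 CPM in chow livers and 75.8, 11.6, 77.7 and 96.4 CPM in DT livers (4.02 ± 0.68, adjusted p = 0.0211). Col3a1, its partner in early scar, was at 7.66, 12.6 and 7.60 CPM against 187, 28.2, 103 and 143 CPM (3.63 ± 0.61, adjusted p = 0.0214). In both, DT liver 2 was clear of chow and several times below the other DT livers. Acta2, smooth muscle actin of myofibroblasts, followed another order, at 10.7, 10.3, 5.44 and 2.36 CPM against 0.532, 0.337 and 0.143 CPM in chow, with DT livers 1 and 2 the highest (4.42 ± 0.68, adjusted p = 0.0195). Tagln, another contractile gene, had the same order with 11.98, 11.2, 8.60 and 5.04 CPM (1.94 ± 0.33). The collagen cross-linking enzyme Loxl1 rose by 4.35 ± 0.71.

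Against the saline livers 18 of the 20 fibrosis genes were higher, among them Col1a1 (2.84, adjusted p = 0.00766), Acta2 (2.86, 0.00667) and Loxl1 (3.05, 0.00624); Col1a1 in saline livers was 9.18 ± 4.30 CPM (SD, n = 4). Of 13 stellate cell markers tested 8 were higher and 0 lower, with a median of 0.99. Des, desmin, was at 3.46, 3.45 and 4.57 CPM in chow and 13.2, 8.59, 8.98 and 11.8 CPM in DT livers (1.48 ± 0.23), and Dcn, decorin, at 79.8, 106 and 89.6 CPM against 252, 156, 303 and 326 CPM (1.499 ± 0.27). The growth factor receptor Pdgfrb rose by 2.65 ± 0.49, Ngfr by 1.80 ± 0.28 and Gdf2, the ligand BMP9, by 0.77 ± 0.12.

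Of 12 TGF-beta pathway genes 8 were higher and 0 lower (median 1.12). Among the ligands, Tgfb2 was at 0.266, 0.253 and 0.143 CPM in chow and 3.73, 0.561, 4.57 and 6.10 CPM in DT livers (4.07 ± 0.80), Tgfb3 rose by 3.71 ± 0.65 and Tgfb1 by 0.89 ± 0.20. Tgfbi, a matrix protein induced by the pathway, rose by 1.495 ± 0.35. The fibrosis count of 20 was 20 without DT liver 2, 17 without DT liver 1, 1 and 2 without DT livers 3 and 4, and 0 without any 1 chow liver. The stellate count was 8 higher and 1 lower without DT liver 2 and 9, 3 and 0 higher without DT livers 1, 3 and 4, the TGF-beta count 10, 4, 0 and 0 for livers 2, 1, 3 and 4, and both were 0 without any 1 chow liver.

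Capillary and vascular genes were higher for 3 of 10 tested and lower for 0. Cd34, absent from most healthy sinusoids, was at 1.22, 0.926 and 1.00 CPM in chow livers and 14.1, 2.07, 11.97 and 14.97 CPM in DT livers (3.36 ± 0.64, adjusted p = 0.0243). Vwf, von Willebrand factor, rose by 1.36 ± 0.27 and Esm1, a tip cell gene, by 6.03 ± 1.36; for Esm1, DT liver 2 lay inside the chow range. Of 16 sinusoidal endothelial markers only Mrc1, the mannose receptor, was called, and it fell by 0.74 ± 0.20 (adjusted p = 0.0448); total-count scaling gave -0.29 (adjusted p = 0.331). Which cells the Mrc1 reads came from cannot be told in whole liver. The list's median was -0.35, and 0.09 under total-count scaling, where the median of all genes was 0.44. Lyve1, a hyaluronan receptor of these cells, was at 6.22, 10.8 and 9.12 CPM against 14.9, 7.40, 28.8 and 22.6 CPM and was not called (1.08 ± 0.43, adjusted p = 0.13). Kdr, which binds VEGF, stood at 90.3, 75.7 and 68.2 CPM against 61.6, 55.9, 53.4 and 47.8 CPM without passing (adjusted p = 0.0523). DT and saline differed in Cd34 (2.82, adjusted p = 0.00669), Mrc1 (-0.71, 0.0152) and Kdr (-0.55, 0.0103). Of the 16 sinusoidal markers 4 were lower than in saline and 1, the scavenger receptor Stab1 (0.50, adjusted p = 0.0234), was higher; Lyve1 and Stab1 are named after their values were seen. Leaving out DT liver 2 gave 8 capillary genes higher and, of the sinusoidal markers, 3 higher and 8 lower; leaving out DT liver 1 gave 2 capillary genes higher and 1 sinusoidal marker lower, and leaving out any other liver gave 0.

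**Figure D3:**
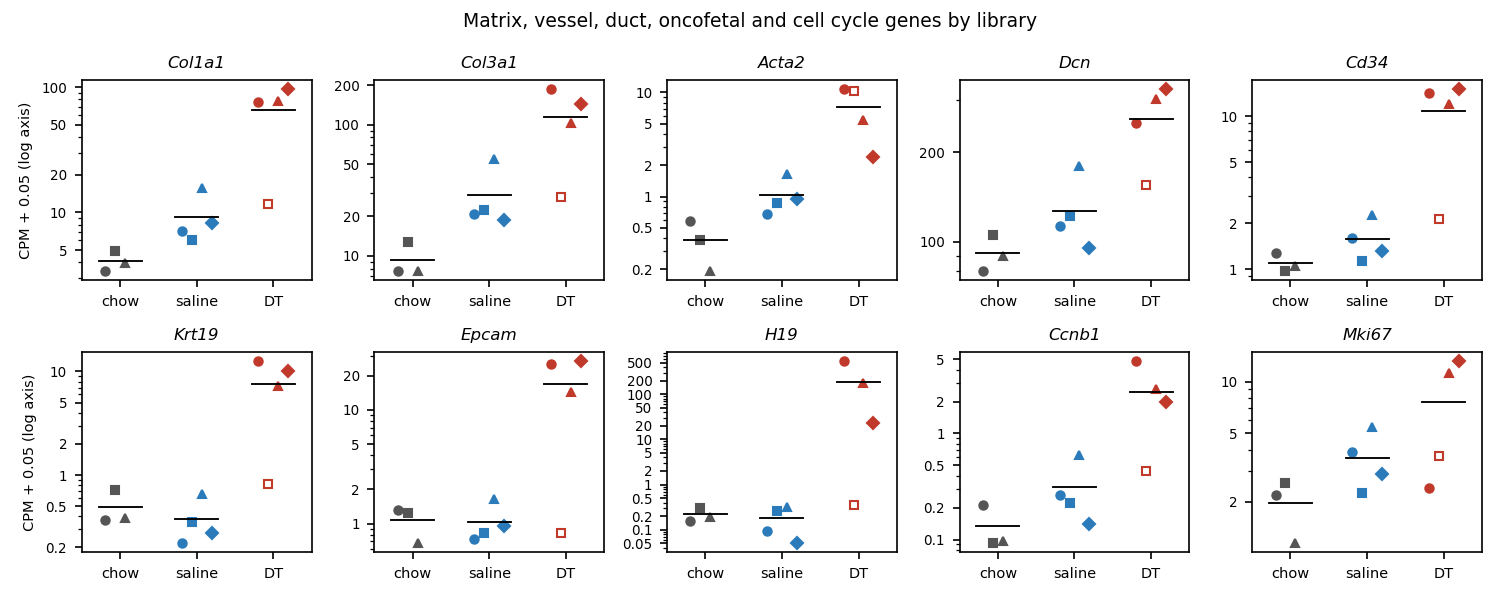
CPM plus 0.05 on a log axis for 10 matrix, vessel, duct, oncofetal and cell cycle genes in chow (grey), saline (blue) and DT livers (red), with marks as for the macrophage genes. DT livers 1, 3 and 4 are above every chow liver in 9 of the panels; in the Mki67 panel DT liver 1 is inside the chow range, and DT liver 2 (open square) is at or near chow for Krt19, Epcam and H19 and with its group for Acta2.

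Bile duct and ductular reaction genes were high in DT livers 1, 3 and 4 and near chow in DT liver 2. Krt19, a keratin of bile duct cells, was at 0.319, 0.673 and 0.334 CPM in chow livers and 12.5, 0.777, 7.14 and 10.02 CPM in DT livers (4.09 ± 0.89, adjusted p = 0.0302). Krt7, a second duct keratin, was at 0.372, 0.253 and 0 CPM against 7.73, 1.04, 4.52 and 7.52 CPM (4.64 ± 1.02, adjusted p = 0.0311). For Krt19 the value of DT liver 2 was just above the highest chow liver, and the other DT livers were far above it. The mucin Muc1 rose by 3.68 ± 0.82 and Tnfrsf12a, the receptor of a cytokine that drives duct sprouting, by 1.55 ± 0.35. Sox9, a transcription factor of duct cells, was at 16.3, 7.28 and 9.77 CPM in chow and 30.9, 5.76, 22.3 and 40.1 CPM in DT livers and was not called (adjusted p = 0.209). Of 15 genes tested 8 were higher and 0 lower, with a median of 3.68; 13 were higher against saline, among them Krt19 (4.53, adjusted p = 0.00563) and Sox9 (2.96, 0.00577; saline 3.20 ± 0.680 CPM (SD, n = 4)). Without DT liver 2 the count was 13 of 15, and without any other single liver it was 0.

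Genes of fetal liver and liver tumours were higher for 7 of 10 tested and lower for 1. H19, an imprinted RNA that is shut off after birth, was at 0.106, 0.253 and 0.143 CPM in chow and at 532, 0.302, 181 and 22.9 CPM in the DT livers, lowest in DT liver 2, which was just above chow, and highest in DT liver 1 (10.05 ± 2.42, adjusted p = 0.0378). Ly6d was at 1.75, 3.66 and 1.62 CPM against 123, 14.9, 124 and 102 CPM (5.27 ± 0.79), and the heparan sulfate proteoglycan Gpc3 rose by 2.58 ± 0.60. Scd2, the desaturase of the fetal liver, rose by 3.15 ± 0.59. H19 and Igf2bp3 were picked after their values were seen. Igf2bp3, an RNA-binding protein of fetal cells, had 1 count in the chow livers together and 315, 0, 388 and 209 counts in DT livers 1 to 4. Peg3, an imprinted zinc finger gene, fell by 2.06 ± 0.31 (adjusted p = 0.018), with 2.78, 3.97, 6.94 and 4.31 CPM against 23.7, 18.4 and 14.4 CPM, and its saline level was 3.31 ± 0.910 CPM (SD, n = 4). H19 exceeded saline by 10.37 (adjusted p = 0.00801) and Peg3 did not differ from it at the threshold (0.47, 0.256). The 7 higher genes were 9 without DT liver 2 and 3, 1 and 0 without DT livers 1, 3 and 4, Peg3 lost its call without DT liver 4 (adjusted p = 0.0594) and without any 1 chow liver (0.069 to 0.11), and without any 1 chow liver none of the list was called.

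Cell cycle genes were higher for 7 of 18 tested and lower for 0 (median 2.21). Ccnd1, the cyclin of entry into the cycle, was at 10.7, 20.4 and 12.9 CPM in chow livers and 149, 43.6, 88.5 and 87.4 CPM in DT livers (2.65 ± 0.43, adjusted p = 0.0205). Ccnb1, a cyclin of mitosis, was at 0.160, 0.0421 and 0.0476 CPM against 4.74, 0.389, 2.55 and 1.93 CPM (4.86 ± 0.96, adjusted p = 0.0259). The DT livers were above chow in both, liver 2 the least. Ccnb2, Ccna2 and Cdc20 rose by 3.70 ± 0.78, 3.32 ± 0.59 and 4.26 ± 0.94. Mki67, a nuclear protein of cycling cells, was at 2.15, 2.52 and 1.10 CPM against 2.37, 3.63, 11.1 and 13.1 CPM, with DT liver 1 inside the chow range although its Ccnb1 and Cdc20 were the highest of all, and was not called (adjusted p = 0.0792). Of 14 p53 targets tested 3 were higher and 1 lower (median 0.28), beside 12.5% of all genes called. Gdf15 (2.92 ± 0.66), Phlda3 (2.78 ± 0.65) and Eda2r (2.23 ± 0.56) rose and Sesn2 fell by 1.14 ± 0.18. The cell cycle inhibitor Cdkn1a was at 22.6, 32.2 and 89.5 CPM in chow and 47.3, 22.9, 61.0 and 148 CPM in DT livers and was not called (adjusted p = 0.611). Saline livers had Cdkn1a at 3.97 ± 4.11 CPM (SD, n = 4), and the DT livers were above saline (4.14, adjusted p = 0.00813), while the DT and chow ranges overlapped.

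The cell cycle count without DT liver 2 was 15 and the p53 count 4 higher and 2 lower, without DT liver 1 they were 6 and 1 with 1 lower, and without any other single liver both were 0. The promoters of 13 of the 18 cell cycle genes were listed. CCAAT, the box bound by NF-Y, was present on either strand (as ATTGG on the other) in 11 of them and in 5 of the 5 called ones, beside 34.5% of all promoters of the same length. TTTGAA, the sequence of the cell cycle homology region (TTCAAA on the other strand), was present in 6 and in 4 of the 5 called ones, beside 16.3% of all. Matches at any distance from the start were counted. In Ccnb2 the match lay 167 bases before the start, upstream of the CCAAT boxes at 87, 54 and 21 bases. Whether a match acts as that region was not tested. The promoters of Ccnb2 (chr9:70421555-70421804, minus strand) and Top2a (chr11:99024190-99024439, minus strand), the topoisomerase of dividing cells, are shown because both motifs occur in each, in capitals; no CCAAT box overlaps a TTTGAA there. Top2a, picked after its values were seen, rose by 2.21 ± 0.50 (adjusted p = 0.0332).
Ccnb2: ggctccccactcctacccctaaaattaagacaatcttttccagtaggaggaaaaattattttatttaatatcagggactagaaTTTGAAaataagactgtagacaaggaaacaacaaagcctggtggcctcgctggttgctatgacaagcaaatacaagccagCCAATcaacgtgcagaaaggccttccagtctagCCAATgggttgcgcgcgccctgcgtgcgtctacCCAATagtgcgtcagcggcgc
Top2a: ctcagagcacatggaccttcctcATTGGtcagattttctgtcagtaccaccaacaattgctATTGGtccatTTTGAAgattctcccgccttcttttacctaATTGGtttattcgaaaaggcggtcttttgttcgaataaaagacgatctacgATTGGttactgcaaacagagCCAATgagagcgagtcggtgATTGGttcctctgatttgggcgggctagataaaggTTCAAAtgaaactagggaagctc

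Transcription factors that maintain hepatocytes were not called in either direction, 0 of 17, although 8 had an unadjusted p under 0.05 and DESeq2 called 3 lower. Their median was -0.45, and 0 under total-count scaling. Hnf4a, the central factor of hepatocyte identity, was at 1313, 1031 and 1364 CPM in chow and 643, 1041, 840.5 and 701 CPM in DT livers, where DT liver 2 lay inside the chow range (adjusted p = 0.101). Nr5a2, Prox1 and Nr1h4, the bile acid receptor, had log2 differences of -0.45 ± 0.13, -0.53 ± 0.16 and -0.83 ± 0.25 that did not pass. Without DT liver 2, 9 of the 17 were lower and 1 higher. Compared with saline, 7 of the 17 were lower and 1 higher, beside 7.62% and 14.3% of all genes. Hnf4a did not differ from saline at the threshold (0.04, adjusted p = 0.888). The list's mean log2 CPM minus chow was 0.06, 0.08, 0.09 and 0.33 for the saline group. For the DT group it was -0.48, -0.07, -0.42 and -0.37, replicates 1 to 4.

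Secreted hepatocyte proteins included both directions. Apoa4, an apolipoprotein that rises with liver fat, was at 612, 519 and 516 CPM in chow and 2145, 2402, 3362 and 2937 CPM in DT livers (2.30 ± 0.23, adjusted p = 0.00613), with a difference from saline of -0.10 (adjusted p = 0.741). Apoa1, the main protein of HDL, was at 14180, 14320 and 14770 CPM against 7799, 8947, 6081 and 4550 CPM and fell by 1.07 ± 0.27 (adjusted p = 0.0399). Rbp4, the retinol carrier, and Serpina1a, an antitrypsin, fell by 1.10 ± 0.30 and 0.98 ± 0.27. These were 1 higher and 3 lower of 17 tested, and albumin itself was not called (-0.37 ± 0.25, adjusted p = 0.347; its sign turned under total-count scaling). Complement and coagulation genes were lower for 4 of 18: C8b, of the membrane attack complex, at 458, 462 and 329.7 CPM against 83.6, 182, 109 and 90.8 CPM (-1.84 ± 0.29, adjusted p = 0.0197), then Cfb, F5 and C9 (-0.93 ± 0.20, -0.91 ± 0.24 and -1.22 ± 0.33), while the anaphylatoxin receptor C5ar1 of myeloid cells rose by 1.41 ± 0.37. With total-count scaling Cfb, F5 and C9 missed the threshold (-0.50, -0.48 and -0.79, adjusted p = 0.083, 0.104 and 0.0765), and 1 of the list was lower. Without DT liver 2 the lower genes were 11 of the secreted and 11 of the complement genes; without DT liver 1 they were 0 and 2, and without any other single liver 0. Apoa4 lost its call without any 1 chow liver and C5ar1 without any liver but DT liver 2.

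Of 18 genes of cytochrome P450 families 1 to 3, which act on drugs and steroids, 2 were higher and 2 lower, beside 12.5% of all genes called. Cyp3a11 fell by 0.93 ± 0.21 and Cyp3a25 by 1.42 ± 0.34, and neither passed after the GC correction (-0.69 and -1.24, adjusted p = 0.177 and 0.0518); total-count scaling gave -0.47 for Cyp3a11 (adjusted p = 0.116). Cyp2b9 was at 0.479, 0.484 and 0.691 CPM in chow and 69.1, 34.0, 1.70 and 3.75 CPM in DT livers (5.62 ± 1.39), highest in DT livers 1 and 2, and its near-identical neighbour Cyp2b13 at 0.0266, 0 and 0.0715 CPM against 4.24, 0.950, 0.389 and 0.637 CPM; reads of this pair may be split. Cyp2e1, which oxidises ethanol, was at 12780, 11580 and 14670 CPM against 3248, 10100, 1955 and 2078 CPM: DT livers 1, 3 and 4 were far below chow and DT liver 2 just below it, and the gene was not called (-1.58 ± 0.57, adjusted p = 0.102). Without DT liver 2 it was (-2.38, adjusted p = 0.000317), and DT and saline differed by -1.501 (adjusted p = 0.0367). Of 12 alcohol metabolism genes tested 2 were higher and 2 lower, beside 12.5% of all genes called. Acss2, which activates acetate, and Cat, catalase, fell by 0.72 ± 0.17 and 0.95 ± 0.26 (Acss2 was at -0.29 with total-count scaling, adjusted p = 0.104). Acss1 and Aldh1b1 rose by 2.74 ± 0.71 and 1.84 ± 0.48. Against saline 2 of the 12 were higher and 6 lower, beside 14.3% and 7.62% of all genes.

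Conjugation enzymes were lower for Ugt2b38, Gstp1 and Ugt3a1 (-2.20 ± 0.33, -1.49 ± 0.26 and -1.503 ± 0.34) and higher for Gstm3 among 16 tested. NRF2 targets, which answer oxidative stress, were higher for 5 of 12: Slc7a11, the cystine importer (5.81 ± 1.00), the glutathione transferases Gsta1 (5.93 ± 1.07) and Gstm3 (4.70 ± 0.96), haem oxygenase Hmox1 (1.06 ± 0.25) and the efflux pump Abcc4 (2.68 ± 0.68). Gstm3 was at 14.9, 13.5 and 12.8 CPM in chow and 862, 43.0, 165 and 358 CPM in DT livers, high in all 4 and highest in DT liver 1. The 5 NRF2 targets were 7 without DT liver 2, 3 without DT liver 1 and 0 without any other; the P450, alcohol and conjugation lists had 12, 6 and 7 lower without DT liver 2, 1 each and 2 lower without DT liver 1 and 0 without any other.

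Lipogenesis genes were higher for 5 of 14 tested and lower for 0. Scd1, the desaturase that makes monounsaturated fat, was at 1943, 2493 and 1575 CPM in chow livers and 15930, 17830, 8283 and 15560 CPM in DT livers (2.85 ± 0.35, adjusted p = 0.0128), with DT liver 2 the highest. Its saline level of 31910 ± 5550 CPM (SD, n = 4) was higher still (-1.14, adjusted p = 0.0126). Srebf1, the transcription factor of fat synthesis, was at 42.9, 33.9 and 37.1 CPM against 165, 379.5, 123 and 111 CPM (2.36 ± 0.45), and Acaca, Acly and Fasn, the enzymes from citrate to palmitate, rose by 1.53 ± 0.28, 0.78 ± 0.17 and 1.67 ± 0.44. Fasn missed the threshold after the GC correction (1.53, adjusted p = 0.0597). Of 15 lipid droplet and uptake genes 8 were higher and 2 lower. Cd36, the fatty acid importer, was at 60.0, 48.8 and 51.8 CPM against 116, 148, 181 and 207 CPM (1.61 ± 0.22), and Pparg, its regulator, rose by 1.23 ± 0.18, to a level below saline (-0.70, adjusted p = 0.00727).

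Cidec and Fabp4, of fat storage and transport, rose by 1.44 ± 0.27 and 1.72 ± 0.25. Cidea, which enlarges lipid droplets and was picked after its values were seen, had 2 counts in each chow library and 50, 3171, 66 and 282 counts in DT livers 1 to 4, so that DT liver 2 was at 68.4 CPM and the others at 0.800 to 3.82 CPM; saline livers held 27.1 ± 9.67 CPM (SD, n = 4). The droplet coat gene Plin2 and the lipase gene Pnpla2 fell by 1.05 ± 0.20 and 0.76 ± 0.19; total-count scaling gave -0.29 for Pnpla2 (adjusted p = 0.368) and 9 higher and 1 lower for the list. The lipogenesis count was 6 higher and 1 lower without DT liver 2 and 5, 2 and 1 higher without DT livers 1, 3 and 4; the droplet count was 8 and 2 without DT liver 2 and without DT liver 1, then 3 and 2 higher and 0 lower without DT livers 3 and 4. Without chow liver 1, 2 or 3 lipogenesis had 0 and the droplet list 0, 0 and 1 higher.

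Cholesterol synthesis genes were lower for 10 of 18 tested and higher for 0, beside 3.2% of all genes, with a median of -0.82. Msmo1, a sterol demethylation enzyme, was at 43.5, 37.1 and 42.0 CPM in chow and 8.99, 5.53, 10.7 and 8.27 CPM in DT livers (-2.28 ± 0.21, adjusted p = 0.00613). Cyp51, another sterol demethylation enzyme, was at 59.4, 47.5 and 35.9 CPM against 11.4, 6.95, 11.3 and 10.3 CPM (-2.25 ± 0.23, adjusted p = 0.00613). For both genes every DT liver was far below the lowest chow liver, and DT liver 2 was the lowest. Hmgcs1, Idi1 and Nsdhl, of earlier and later steps, fell by 1.16 ± 0.18, 2.68 ± 0.41 and 1.37 ± 0.23. Sqle, squalene epoxidase, was at 15.8, 12.3 and 10.4 CPM against 2.53, 0.0863, 3.38 and 1.79 CPM and narrowly missed (-2.71 ± 0.77, adjusted p = 0.0548); it was higher in DT than in saline livers (3.05, adjusted p = 0.0202; saline 0.232 ± 0.169 CPM (SD, n = 4)). The 10 were 12 without DT liver 2, 9 without DT liver 1 and 3 without DT liver 3 or 4. Without chow liver 1, 2 or 3 they were 0, 0 and 2. Total-count scaling gave 4, with Hmgcs1 at -0.69 (adjusted p = 0.0539). Compared with saline, 3 of the 18 genes were lower and 1, Sqle, was higher. The list's mean log2 CPM minus chow was -1.42, -1.15, -0.85 and -1.59 for the saline group. For the DT group it was -0.95, -1.73, -0.97 and -1.15, so the list lay below every chow liver in both groups.

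Sterol genes are switched by SREBP2 beside NF-Y, whose box is CCAAT. Among 11 cholesterol synthesis genes with a listed promoter 10 held CCAAT on either strand, and so did 7 of the 7 called ones, beside 34.5% of all promoters. The Hmgcs1 window (chr13:119690101-119690350, plus strand) and the Msmo1 window (chr8:64733579-64733828, minus strand) are shown for their 3 boxes each, in capitals, which read ATTGG in Hmgcs1 and CCAAT in Msmo1.
Hmgcs1: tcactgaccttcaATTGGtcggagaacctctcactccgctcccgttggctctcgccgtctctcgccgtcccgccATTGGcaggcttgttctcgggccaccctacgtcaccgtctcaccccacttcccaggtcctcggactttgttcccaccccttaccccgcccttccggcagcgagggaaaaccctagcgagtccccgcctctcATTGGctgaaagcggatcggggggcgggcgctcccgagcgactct
Msmo1: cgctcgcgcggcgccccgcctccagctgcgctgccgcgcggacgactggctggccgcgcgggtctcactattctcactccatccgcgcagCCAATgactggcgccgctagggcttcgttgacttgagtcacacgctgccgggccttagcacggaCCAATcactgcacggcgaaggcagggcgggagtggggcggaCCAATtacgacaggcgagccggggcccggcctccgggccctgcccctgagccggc

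Fatty acid oxidation had the largest share of lower genes among the 43 lists: 13 of 18 tested were lower and 0 higher, with a median of -0.90. Cyp4a14 was at 5389, 6430 and 6791 CPM in chow livers and 1113, 466, 764 and 392.3 CPM in DT livers (-3.18 ± 0.38, adjusted p = 0.0117), and Cyp4a10 fell by 2.76 ± 0.33. Both hydroxylate fatty acids at their far end and are targets of PPAR-alpha. Ehhadh, of peroxisomal oxidation, fell by 1.74 ± 0.26. Ppara itself, the receptor that drives the pathway, was at 163, 150.3 and 165 CPM against 66.4, 106, 94.8 and 84.9 CPM (-0.85 ± 0.17, adjusted p = 0.0267; total-count scaling gave -0.41, adjusted p = 0.0883). Its saline level of 273 ± 30.7 CPM (SD, n = 4) was above chow, and DT and saline differed by -1.61 (adjusted p = 0.000871). The Cyp4a14 levels of DT and saline did not differ at the threshold (0.08, 0.91). The 13 were 15 lower with 1 higher without DT liver 2, 8 without DT liver 1, 2 and 3 without DT livers 3 and 4, and 0 without any 1 chow liver. Total-count scaling called 8 lower, with a list median of -0.47 where the median of all genes was 0.44. Against saline 8 of the 18 were lower and 1 higher.

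**Figure D4:**
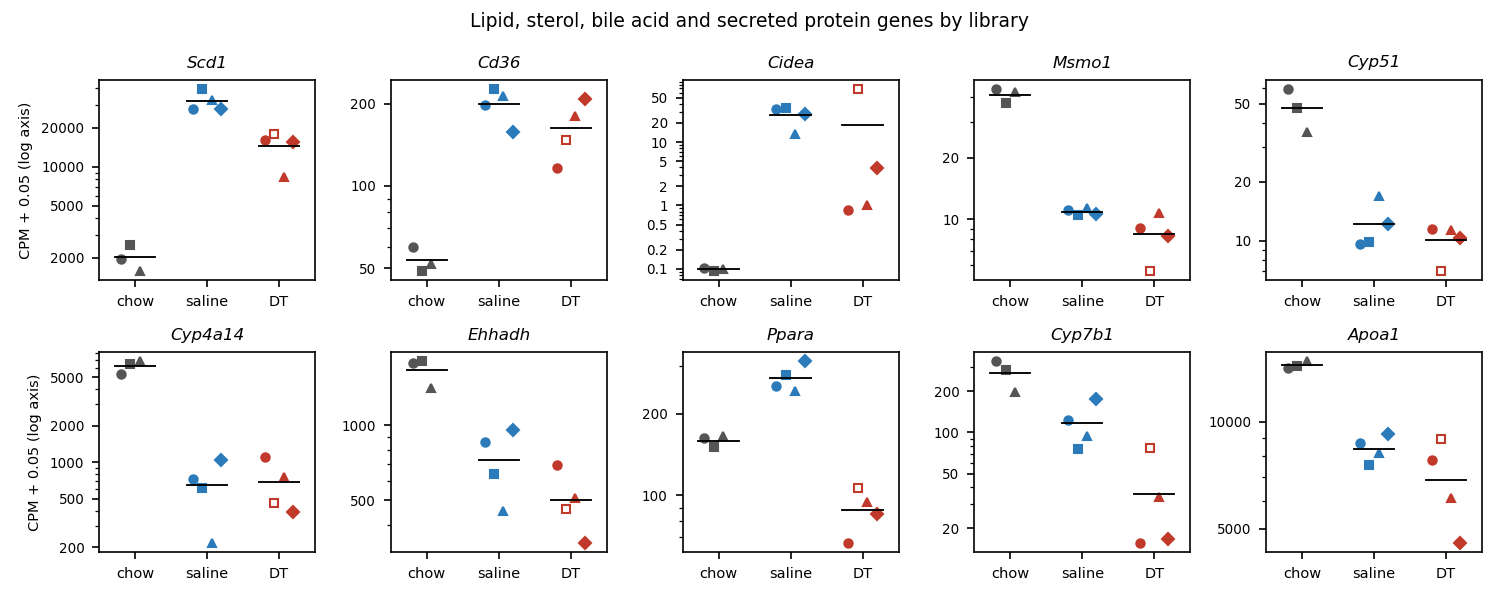
CPM plus 0.05 on a log axis for 10 genes of fat, sterol and bile acid metabolism and a secreted protein in chow (grey), saline (blue) and DT livers (red), with marks as for the macrophage genes. Scd1, Cd36 and Cidea are above chow and the other 7 genes below chow in every DT liver, and Ppara is above chow in the saline livers and below it in the DT livers.

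Bile acid synthesis was lower at 3 of 14 genes and higher at 0. Cyp7b1, of the alternative route, was at 329, 282 and 198 CPM in chow and 15.4, 76.4, 33.7 and 16.7 CPM in DT livers (-2.92 ± 0.56, adjusted p = 0.0241), and below saline too (-1.70, adjusted p = 0.0266). Cyp8b1, which makes cholic acid, and Cyp27a1, which opens the alternative route, fell by 2.29 ± 0.58 and 1.21 ± 0.27. Cyp7a1, the rate-limiting enzyme of the classical route, was at 75.2, 103 and 97.4 CPM against 38.6, 119.8, 90.3 and 66.8 CPM and was not called (-0.22 ± 0.34, adjusted p = 0.692; its sign turned under total-count scaling and without DT liver 1). Of 14 transporters of bile acids, lipids and drugs 3 rose and 3 fell. The cholesterol exporter Abcg5 rose by 1.56 ± 0.23, Abcb1a by 2.39 ± 0.51 and Abcc4 by 2.68 ± 0.68. The phospholipid exporter Abcb4 fell by 0.84 ± 0.17, and the conjugate pumps Abcc2 and Abcc3 by 0.78 ± 0.18 and 0.90 ± 0.22. With total-count scaling these 3 missed the threshold (-0.40, -0.34 and -0.46, adjusted p = 0.0584, 0.0784 and 0.0875), and the list had 4 higher and 0 lower. Leaving out DT liver 2 gave 7 bile acid genes lower with 1 higher and 3 transporters higher with 6 lower. Leaving out DT liver 1 gave 1 bile acid gene lower, and 1 transporter higher with 3 lower; without DT liver 3 or 4 only 1 higher transporter was called, and without any 1 chow liver none.

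Glucose genes were called for 4 of 17. G6pc, which releases glucose from the liver, was at 543, 692 and 733 CPM in chow and 286, 267, 272 and 231 CPM in DT livers (-1.31 ± 0.17, adjusted p = 0.0155), and Pck1, of gluconeogenesis, fell by 1.06 ± 0.26 (-0.59 with total-count scaling, adjusted p = 0.115). Pkm and Hk1, glycolytic isoforms that hepatocytes barely use, rose by 1.34 ± 0.26 and 1.00 ± 0.26. Among 14 stress-response genes, Atf3 was at 0.691, 0.379 and 0.381 CPM against 20.1, 3.84, 9.19 and 10.4 CPM (4.50 ± 0.61), Ddit3 and Hspa1a rose by 1.13 ± 0.19 and 1.53 ± 0.33, and Asns fell as given above. The glucose calls were 5 higher and 2 lower without DT liver 2, 1 and 2 without DT liver 1, 1 lower without DT liver 3 or 4 and none without any 1 chow liver. The stress calls were 4 higher and 2 lower without DT liver 2, 3 and 1 without DT liver 1, 1 and 1 without DT liver 3 or 4, and Asns alone without any 1 chow liver.

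**Figure D5:**
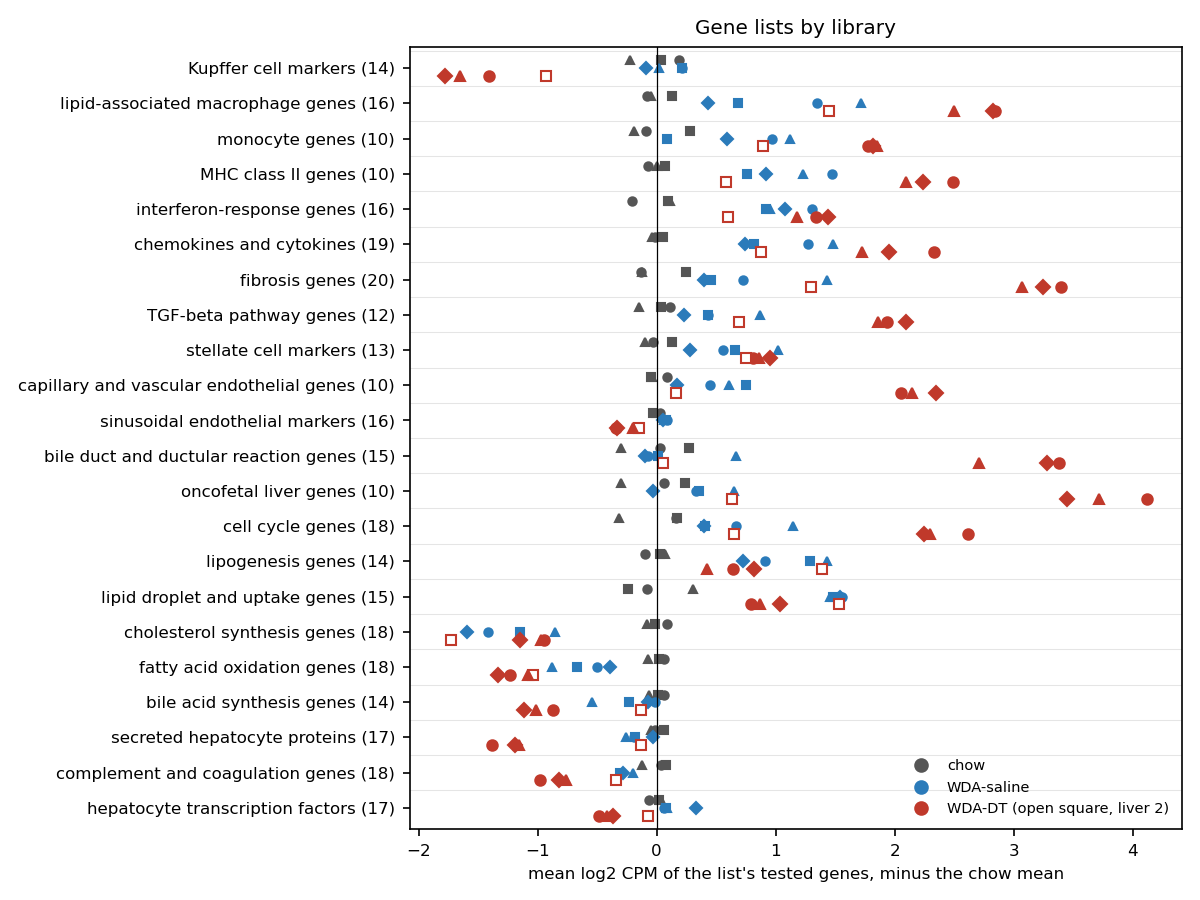
Mean log2 CPM of each list's tested genes minus the mean of the chow livers (horizontal axis), 1 mark a library, for 22 gene lists with the number of genes in brackets; grey is chow, blue saline, red DT, symbols are replicates 1 to 4 and the open square is DT liver 2. DT liver 2 is nearest to chow among the DT livers for the duct (0.05), capillary (0.16) and oncofetal (0.63) lists and farthest from chow for cholesterol synthesis (-1.73), lipogenesis (1.39) and lipid droplets (1.53).

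The place of DT liver 2 among the DT livers differed between lists. The mean log2 CPM of the fibrosis genes was 3.40, 1.30, 3.07 and 3.25 above chow in DT livers 1 to 4, and that of the duct genes 3.38, 0.05, 2.71 and 3.28. Kupffer cell genes were at -1.41, -0.93, -1.65 and -1.78, below every saline and chow liver in all 4. Fatty acid oxidation genes were at -1.23, -1.04, -1.08 and -1.33, and cholesterol synthesis genes at -0.95, -1.73, -0.97 and -1.15. DT liver 2 was the nearest of the DT livers to chow for the fibrosis, duct, Kupffer cell and fatty acid oxidation lists and the farthest from chow for the cholesterol synthesis list.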

How the data were processed

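Poly(A) RNA of whole liver was sequenced, and the authors deposited 1 table of raw read counts per gene for all 11 samples. FastQC, STAR, featureCounts and the build GRCm39 are named in the submitters' processing notes. Their versions, the annotation, and the handling of strand and read mates are not given in the sources used here, and 76.1% to 81.1% of low counts were even numbers. Each library held 43995217 counts or more. DT livers were compared with chow by edgeR's quasi-likelihood test (4.0.16, robust, R 4.3.3) on the 7 libraries with TMM factors and filterByExpr, with Benjamini-Hochberg adjustment over all genes tested; DT against saline was taken from a fit of all 11. Errors of log2 fold changes are SEs. CPM used TMM-scaled library sizes (log2 CPM with a prior count of 2). On simulated data with fitted dispersions 28% of 2-fold and 89% of 4-fold changes were recovered (100 genes each, with 16056 tested). The changed genes were drawn from those with a mean above 4 CPM, so recovery of weaker genes was not tested. Genes were simulated independently of each other, without a liver that stood apart in many genes at once.

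The members and the 43 lists (33 described) were chosen with earlier results of these data known. Named genes are 18 genes given in every account, the 10 largest rises and falls of genes that were called, did not overlap between groups and averaged 2 or more in log2 CPM, up to 5 members of each list by smallest p, and the members where 5 or fewer went 1 way; some of them are not reported here. Alternatives were other scalings and filters, DESeq2 (1.42.0), limma-voom (3.58.1), a replicate block, all groups in the fit, a minimum fold, halved counts, each library left out and, chosen after seeing the data, a GC correction.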

Additional observations from a re-analysis of the deposited data

Results flagged for a closer look

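In the DT group, 219 values (genes described and list means, on the log2 scale) were checked for 1 liver far from the other 3 by the ratio of its gap to the whole range, and 23 passed the 95% critical value of Dixon's ratio; chance gives about 5%. DT liver 2 was the low one for Col1a1 (0.887), Ly6d (0.911), Ddr1 (0.875), Itgax (0.851), Bicc1 (0.866), Cd63 (0.911) and Fcgr1 (0.983). It was also the low one for Flt3 of dendritic cells (0.955), the vessel genes Cd34 (0.886), Esm1 (0.86) and Aplnr (0.863), the ligand Tgfb3 (0.908), Acss1 (0.839) and the pump Abcb1a (0.862). DT liver 1 was the low one for Mrc1 (0.924) and the high one for Ngfr (0.833). Among list means, DT liver 2 was low for the monocyte (0.927), dendritic cell (0.886), capillary and vascular endothelial (0.863), fibrosis (0.843) and TGF-beta lists (0.83). It was high for the conjugation enzymes (0.859) and the bile acid transporters (0.924). These values share 1 liver and are not independent of each other.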

How the results depend on the processing

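The 2089 calls (1555 higher, 534 lower) were 4151 (3958, 193) with total-count scaling, 3775 (2917, 858) with DESeq2, 411 (193, 218) with limma-voom, 8314 (4343, 3971) with sample weights in limma-voom, 3919 (2528, 1391) with all 3 groups in the fit and 38 (25, 13) against a minimum log2 fold change of 1. Without 1 library the calls ran from 6 to 5694 (higher 1 to 3726, lower 1968 to 5). The share of higher calls was 74.4%, and 95.4%, 47% and 52.2% with total-count scaling, limma-voom and its weights. The GC correction gave 2305 calls, 1934 of them shared. With a replicate block 1 gene was called (0 higher, 1 lower), and 2842 against saline. Deviations of same-numbered chow and DT livers from their group means correlated at 0.045, -0.119 and -0.063. Such values cannot show whether same-numbered livers shared a batch or day, and the labels do not say what the numbers mark. DT against saline gave 2303 calls (1514, 789) with those groups alone, and 1786 to 6824 (higher 1154 to 3827, lower 592 to 2997) without 1 library. Direction turned for uncalled genes: Cdkn1a (-0.007 with the replicate block, from -0.12 to 1.39 without 1 library, lowest without DT liver 4), Cyp7a1 (0.21 with total-count scaling, from -0.43 to 0.023 without 1 library, highest without DT liver 1) and, with total-count scaling, Alb (0.075), Oit3 (0.012) and Xbp1 (0.067). Of 149 called genes checked, 136 kept their call with total-count scaling, 146 with the GC correction, 149 with DESeq2, 57 with limma-voom and 149 without DT liver 2. The causes were not tested. With the dispersions fitted to these livers, 2-fold changes of genes above 4 CPM were mostly missed in simulated data (28% recovered). With a dispersion of 0.01 and the same number of livers, 100% were recovered.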

Other observations

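Some genes and lists stood outside the accounts above, and those named here were chosen after their values were seen. Moxd1, a copper monooxygenase-like protein, was at 149, 95.5 and 23.1 CPM in the chow livers and 0, 0.0432, 0 and 0.0271 CPM in the DT livers (-12.26 ± 0.93, adjusted p = 0.00302). It varied widely in chow and was at or near 0 in all DT livers; its saline level was 0.571 ± 1.11 CPM (SD, n = 4). Cxcl13, which attracts B cells, was at 8.78, 3.70 and 3.81 CPM in chow and 0.0640, 0.0863, 0.288 and 0.0271 CPM in DT livers, a fall of 5.50 ± 0.72 (adjusted p = 0.0157), with saline livers at 0.743 ± 0.292 CPM (SD, n = 4) and a difference from them of -2.62 (adjusted p = 0.0147).

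Of 13 Hippo-YAP target genes 4 were higher and 0 lower (median 0.80), among them Ankrd1 at 0.0532, 0.0842 and 0.143 CPM against 4.01, 0.173, 3.23 and 6.49 CPM (5.18 ± 1.15); 9 were higher and 1 lower without DT liver 2, 1 was higher without DT liver 1 and 0 without any other liver. Haemoglobin genes were lower for 4 of 7 blood cell genes tested, from -1.29 for Hba-a2 to -1.71 for Hbb-bt, copies whose reads may be split; the 4 remained 4 in number without DT liver 1 and were 5 with 1 higher without DT liver 2 and 0 without any other liver. Of 14 acute-phase genes, Steap4 was higher (1.33 ± 0.29) and Saa3 lower (-3.19 ± 0.73), beside 12.5% of all genes called. Among markers of other organs 4 of 15 could be tested, and Msln, of the liver's outer lining, was higher (3.37 ± 0.70). The acute-phase calls were 2 higher and 5 lower without DT liver 2, without chow liver 3 they were 0 and 1, and without chow liver 1 or 2 or DT liver 3 or 4 neither list had a call; Msln lost its call without chow liver 3 too. Urea cycle, pericentral, circadian and oxidative phosphorylation genes had 0 calls of 14, 14, 14 and 16 with edgeR, with 2, 4, 2 and 0 at an unadjusted p under 0.05 and 0, 1, 1 and 0 with DESeq2. Without DT liver 2, 6 pericentral and 2 oxidative phosphorylation genes were lower, 1 urea cycle gene was higher and 1 lower and 0 circadian genes were called; without any other liver 0 genes of these lists were called.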
